A study of Mus musculus with 12 samples.

Results

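The proteasome subunit genes described here are the 46 loci, of 40597 in the deposited table, that are annotated as protein coding and whose symbol begins with Psma, Psmb, Psmc, Psmd, Psme, Psmf or Psmg followed by a digit. RNA was measured in 12 libraries of neurospheres, free-floating clusters of neural stem and progenitor cells, grown from the hypothalamus of mouse fetuses (strain C57Bl/6) taken at embryonic day 14.5. Cultures at passage 3 received 100 nM dexamethasone, a synthetic glucocorticoid, or an equal volume of the ethanol vehicle for 4 h. The 4 groups were male dexamethasone, male vehicle, female dexamethasone and female vehicle, with 3 biological replicates in each. The series compared the treatments within each sex, and no genotype other than sex differed between the groups. What made a replicate (an animal, a litter or a pool) is not stated in the labels, and the p-values therefore speak of the spread among these 12 libraries, which may in part be technical.

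The proteasome degrades proteins tagged with ubiquitin. Its core is a barrel of alpha rings, which gate the entrance, and beta rings, which hold the proteolytic sites, and a regulatory particle binds ubiquitin chains, removes them and threads the substrate in with a ring of ATPases. Interferon can replace the catalytic beta subunits by inducible ones, and glucocorticoids are known to induce ubiquitin-proteasome genes in wasting skeletal muscle. Of the 46 genes, 7 encode alpha subunits, 6 beta subunits, 3 inducible beta subunits, 6 ATPases of the base, 10 other subunits of the regulatory particle, 6 assembly chaperones and 5 activators or inhibitors. Psma8 and Psmb11, core subunits of testis and thymus, also matched, as did Psmc3ip, which is no proteasome subunit but a meiotic recombination factor named for binding Psmc3. Genes that the table joins with a neighbour in 1 locus carry no biotype and fell outside the rule. This left out Psmb5, Psmd1, Psmg3 and Psme2b as members, whose joined names also begin with another gene's symbol.

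The cultures carried progenitor transcripts but few regional ones. All 8 neural progenitor markers averaged 1 FPKM or more (fragments by transcript length and mapped reads, a level scaled by length), from 5.01 FPKM for Nr2e1 to 3503 FPKM for Fabp7, and 3 of 5 neuronal markers did. Of 5 hypothalamic markers found, 1 did so (Foxd1, 1.29 FPKM), while Nkx2-1, Rax, Six6 and Otp lay below 0.05 FPKM. Of 2 telencephalic markers found, 1 did so (Emx2, 4.41 FPKM), and the other averaged 0.021 FPKM. The 5 neuronal markers averaged from 0.483 to 274 FPKM. Their sum was 310 to 476 FPKM under dexamethasone and 332 to 480 FPKM under vehicle. As 12-library means, none of 9 microglial markers (0.182 FPKM at most, with C1qa, C1qb and C1qc at 0 in all 12) and none of 5 endothelial markers (0.547 FPKM at most) reached 1 FPKM. Summed over the 9 microglial markers the libraries held 0.0199 to 0.870 FPKM under dexamethasone and 0.0894 to 0.493 FPKM under vehicle. Loci without a gene name took 53.1% of all FPKM in male dexamethasone library 2 and 74.99% in male vehicle library 3, against 11.6% to 38.6% in the other 10. Two-sided limma tests on log2(FPKM + 1) were run over the 14931 loci whose mean was 1 FPKM or more, and a call means a Benjamini-Hochberg adjusted p under 0.05 over all of them.

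The promoters of 4 genes that the results return to are given here, 250 bases before to 50 bases after each start site in RefSeq on GRCm38.p6. Psmd6 was the gene whose 6 dexamethasone libraries all lay above the 6 vehicle libraries, Psma6 had the largest difference among the core genes, and Psmb6 and Psmc6 hold a match to TGACNNNGC, the antioxidant response element that Nfe2l1 and Nfe2l2 bind. Capitals mark a match to TGACNNNGC or to the CCAAT box, on either strand.
Psmd6, chr14:14120896-14121195, minus strand: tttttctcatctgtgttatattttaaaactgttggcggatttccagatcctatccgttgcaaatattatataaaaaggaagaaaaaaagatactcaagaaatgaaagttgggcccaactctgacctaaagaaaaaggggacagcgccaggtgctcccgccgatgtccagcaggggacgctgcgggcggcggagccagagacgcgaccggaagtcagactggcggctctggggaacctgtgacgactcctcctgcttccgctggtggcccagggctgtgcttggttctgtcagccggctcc
Psma6, chr12:55383972-55384271, plus strand: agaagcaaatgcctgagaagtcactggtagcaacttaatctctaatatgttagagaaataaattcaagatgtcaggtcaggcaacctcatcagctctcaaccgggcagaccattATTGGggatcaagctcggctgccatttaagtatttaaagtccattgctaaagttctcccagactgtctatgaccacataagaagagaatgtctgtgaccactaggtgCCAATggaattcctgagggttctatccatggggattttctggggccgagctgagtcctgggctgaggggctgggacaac
Psmb6, chr11:70525107-70525406, plus strand: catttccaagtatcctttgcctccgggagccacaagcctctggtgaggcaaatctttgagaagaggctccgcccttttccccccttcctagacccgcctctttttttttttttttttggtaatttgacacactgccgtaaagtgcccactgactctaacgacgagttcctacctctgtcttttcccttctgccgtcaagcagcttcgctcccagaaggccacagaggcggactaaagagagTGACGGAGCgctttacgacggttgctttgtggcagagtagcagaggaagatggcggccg
Psmc6, chr14:45329574-45329873, plus strand: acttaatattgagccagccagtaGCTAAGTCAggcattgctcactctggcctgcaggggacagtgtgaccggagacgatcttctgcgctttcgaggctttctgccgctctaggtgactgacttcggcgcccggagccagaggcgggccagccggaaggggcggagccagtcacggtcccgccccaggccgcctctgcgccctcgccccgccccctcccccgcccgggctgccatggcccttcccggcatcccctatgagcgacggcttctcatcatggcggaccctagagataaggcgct
RefSeq promoters were matched by symbol for 38 of the 46 genes, 41 promoters in all. TGACNNNGC stood in 5 of these 41 (12.2%), those of Psmb6, Psmc6, Psmd9, Psmd12 and Psme4, against 12.4% of all 32851 promoters of the same length. CCAAT stood in 15 of 41 (36.6%), against 37.4% of all promoters, and the palindromic glucocorticoid response element, GNACA and TGTNC with 3 bases between, in 0 of 41, against 0.475%. Matches to different motifs did not overlap in these 41 windows, and in the Psmd14 window 2 CCAAT matches on opposite strands overlapped each other. The member loci lay on 15 chromosomes. The Psmd6 window holds none of the 3 motifs, and the Psma6 window shown holds CCAAT in both orientations. RefSeq gives a second Psma6 window on the same strand, chr12:55398575-55398874, which holds none of the 3.

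Proteasome genes were abundant transcripts in neurospheres, and their levels spanned a wide range. The median over the 43 genes that passed the filter was 97.4 FPKM, against 13.8 FPKM over 10979 protein-coding loci tested, and their exons covered a median of 2800 bases, against 4639. Together the members made up 1.05% to 1.14% of the protein-coding FPKM in male dexamethasone libraries and 1.05% to 1.11% in male vehicle libraries. In females the share was 1.10% to 1.13% under dexamethasone and 1.02% to 1.08% under vehicle. The 3 genes that did not pass were Psmb8 (0.428 FPKM), Psmb11 (0.186 FPKM) and Psma8 (0.00636 FPKM), as means over 12 libraries.

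**Figure D1:**
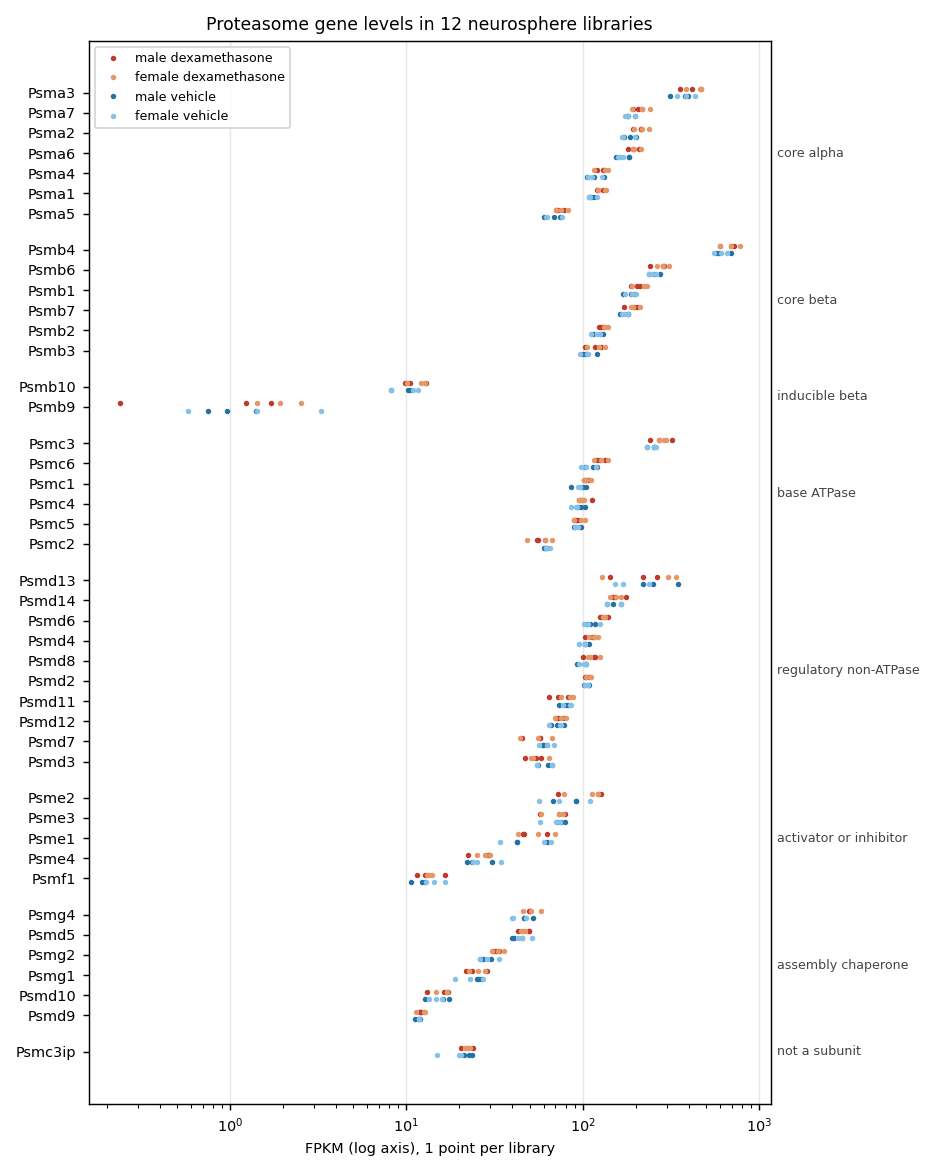
FPKM of the 43 tested proteasome genes on a log axis, 1 point per library, ordered by role and level, with dexamethasone libraries drawn just above vehicle libraries. The alpha and beta genes lie between 60.3 and 777 FPKM in every library, the assembly chaperones between 11.3 and 58.0 FPKM, and the inducible Psmb9 near 1 FPKM.

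No proteasome gene was called in any comparison of the main fit, which set no replicate block. The differences that were seen were small and mostly positive. Averaged over both sexes, limma called 0 of 43 members, against 229 of 14931 loci (1.53%), of which 171 were higher (1.15%) and 58 lower (0.388%). At an unadjusted p under 0.05, 11 of 43 were higher and 0 lower, where 6.86% and 6.74% of all loci were. The log2 difference was positive for 37 of 43 members (86.0%) and for 48.5% of all loci, and its median was 0.12 over the members and -0.0067 over all loci. The 95% interval of 39 of 43 members lay within 0.5 of 0 on the log2 scale. The dexamethasone-induced genes Fkbp5, Tsc22d3, Klf9 and Per1 rose by 2.42, 2.43, 2.00 and 1.91 on the log2 scale in the same fit (adjusted p from 4.44e-07 to 0.000478).

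The count of 11 and the median moved with the libraries and with the scaling. With 1 library left out at a time the count ranged from 6 to 18, being 6 without male dexamethasone 2, 7 without male vehicle 3, female dexamethasone 2 or female vehicle 3, and 18 without male vehicle 1. Of all loci, 859 of 14929 were higher without male dexamethasone 2 and 829 of 14868 without male vehicle 3. Without male vehicle 1, 1126 of 14970 were. The count was 4 without both male dexamethasone 2 and male vehicle 3, the libraries rich in unnamed loci. In that setting 114 of 14849 loci were called, against 229 of 14931 in the main fit. Under array weights the count was 17, with 2 lower, where 1358 of 14931 loci were higher and 1415 lower. With the replicate number as a block it was 21, with 1 lower, where 1838 and 1870 of 14931 loci were. Quantile normalization gave 2, where 935 of 14931 loci were higher, and scaling to an equal protein-coding total gave 3, where 540 of 14945 were. After quantile normalization 32 of 43 differences were positive, with a median of 0.05. That total scaling left 27 positive, with a median of 0.04, while the median of all loci became -0.078 and the called loci divided into 128 higher and 86 lower.

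**Figure D2:**
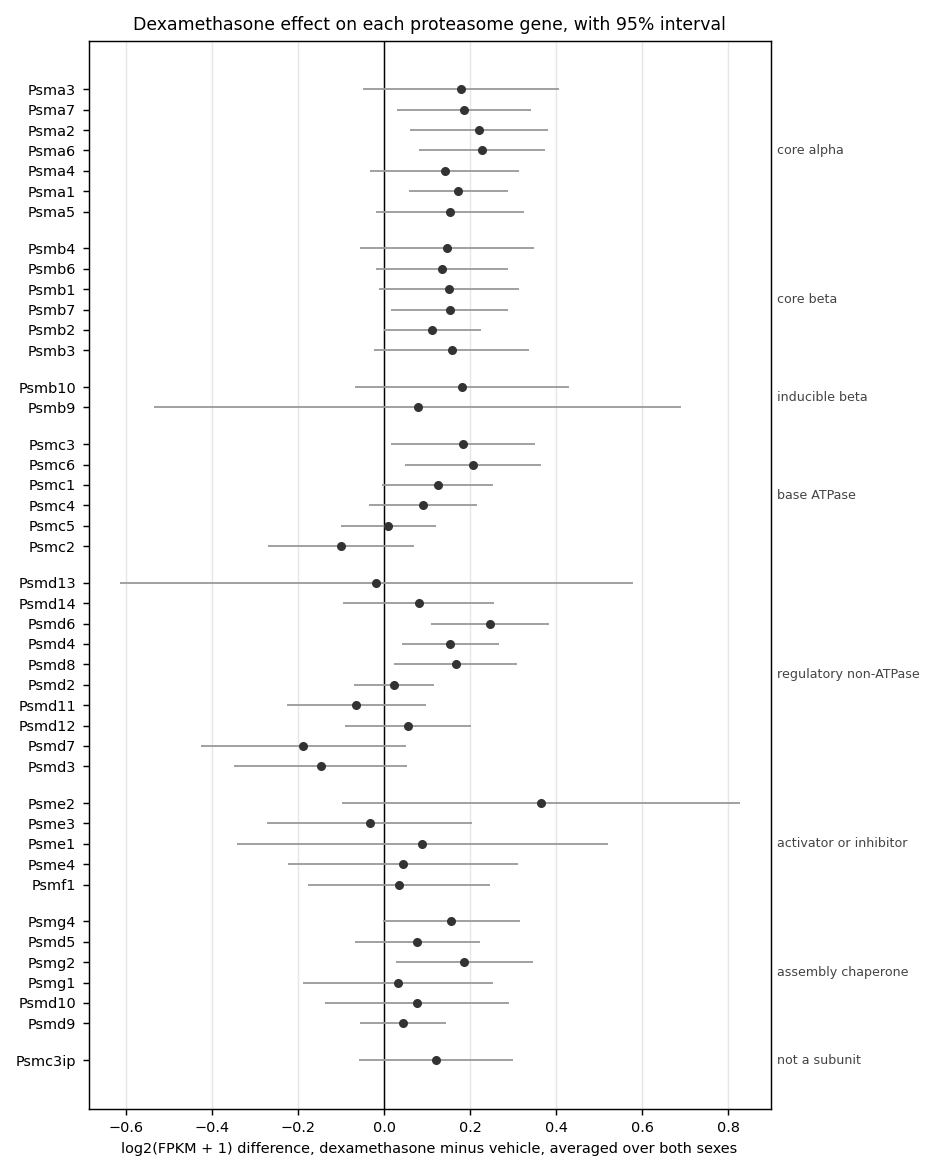
Log2(FPKM + 1) difference, dexamethasone minus vehicle, averaged over both sexes, for each of the 43 tested proteasome genes (points) with its 95% interval (lines), grouped by role. All 13 alpha and beta genes lie to the right of 0, between 0.11 and 0.23, and Psme2, Psmd13, Psmb9 and Psme1 have the 4 widest intervals.

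The core genes varied little among themselves. All 7 alpha genes and all 6 constitutive beta genes among the members had positive differences in the averaged, male and female comparisons, though none was called; the joined locus of the seventh constitutive beta gene, Psmb5, had a negative averaged difference, given with its values further on. In the averaged comparison 64.3% of protein-coding loci with a mean of 50 to 100 FPKM were positive. The share was 70.5% at 100 to 200 FPKM, 78.3% at 200 to 500 FPKM and 88.7% at 500 FPKM or more. The averaged differences lay between 0.14 and 0.23 for the alpha genes and between 0.11 and 0.16 for the beta genes. After quantile normalization 11 of the 13 stayed positive, Psma3 (-0.0011) and Psmb4 (-0.072) being the others, and after scaling to the protein-coding total all 13 did, with a median of 0.07. In males 12 of 13 were positive without male vehicle 3, and 11 without that library and male dexamethasone 2, which left all 13 positive in the averaged comparison (median 0.12).

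Psma6, the gene of the alpha1 subunit (GRCm38 chromosome 12, 55384222 to 55418454), stood at 209, 194 and 181 FPKM in male dexamethasone libraries, against 183, 184 and 155 FPKM in male vehicle libraries. In females it stood at 193, 216 and 195 FPKM under dexamethasone and at 171, 159 and 162 FPKM under vehicle. The female groups did not overlap, and the male groups did through 1 dexamethasone library. The averaged difference was 0.23 (SE 0.07, limma adjusted p = 0.165).

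Psma3, the alpha7 gene and the most abundant of the ring, averaged 426 ± 47.5 FPKM under dexamethasone and 376 ± 43.1 FPKM under vehicle (SD, n = 6 each), with groups that overlapped, and a difference of 0.18 (adjusted p = 0.470). Psma5, the alpha5 gene and the lowest, averaged 74.8 ± 4.79 FPKM under dexamethasone and 67.4 ± 6.74 FPKM under vehicle. Psma4, which encodes alpha3, had the smallest difference of the ring, 0.14 (SE 0.08, adjusted p = 0.453), at 129 ± 8.97 FPKM under dexamethasone and 117 ± 11.02 FPKM under vehicle. Summed over the 7 alpha genes, male dexamethasone libraries held 1435.4, 1366.3 and 1237.5 FPKM, and male vehicle libraries 1302.2, 1224.5 and 1095.1 FPKM. Female dexamethasone libraries held 1436.1, 1517.8 and 1274.5 FPKM, and female vehicle libraries 1325.7, 1135.5 and 1173.1 FPKM. In each sex the sums of the treatments overlapped, and male vehicle library 3 had the lowest of the 12. Set by replicate number, the sum was higher under dexamethasone in 6 of 6 pairs, and so was summed protein-coding FPKM. The labels do not say that a number marks a shared culture.

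Psma1 (alpha6), chosen after its values were seen, was separate by treatment within each sex. It stood at 130, 121 and 122 FPKM in male dexamethasone libraries, against 116, 109 and 112 FPKM in male vehicle libraries. Female libraries stood at 134, 136 and 122 FPKM under dexamethasone and at 121, 111 and 109 FPKM under vehicle. The difference was 0.17 (SE 0.05, adjusted p = 0.177). Psma2 (alpha2) and Psma7 (alpha4) had differences of 0.22 and 0.19, and both overlapped between treatments in each sex.

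Of the beta genes, Psmb6 and Psmb7 encode catalytic subunits that cut after acidic and basic residues. Psmb6 (beta1; chromosome 11, 70525367 to 70527858) was at 285, 288 and 241 FPKM in male dexamethasone libraries, against 276, 254 and 239 FPKM in male vehicle libraries. Its female libraries held 286, 307 and 264 FPKM under dexamethasone and 260, 249 and 239 FPKM under vehicle, so that only the female groups were apart. The averaged difference was 0.14 (SE 0.07, adjusted p = 0.418). Psmb7 (beta2) averaged 194 ± 13.5 FPKM under dexamethasone and 174 ± 7.70 FPKM under vehicle (SD, n = 6 each; difference 0.15, adjusted p = 0.311), over a deposited locus that also spans Nek6. Psmb4, which encodes the non-catalytic beta7, was the most abundant member at 682 ± 68.4 FPKM under dexamethasone and 615 ± 54.1 FPKM under vehicle. Psmb3 (beta3) was the lowest at 118 ± 12.0 FPKM under dexamethasone and 106 ± 8.10 FPKM under vehicle, and had the largest beta difference, 0.16. Psmb2 (beta4) had the smallest, 0.11, and Psmb1 (beta6) had 0.15.

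The inducible catalytic genes were expressed at far lower levels than the constitutive ones. Psmb10 (beta2i) averaged 11.4 ± 1.41 FPKM under dexamethasone and 9.93 ± 1.47 FPKM under vehicle (SD, n = 6 each), with a difference of 0.18 (SE 0.11, adjusted p = 0.507). Psmb9 (beta1i) was at 1.24, 1.71 and 0.236 FPKM in male dexamethasone libraries, against 1.41, 0.754 and 0.964 FPKM in male vehicle libraries. In females it was at 1.43, 2.51 and 1.93 FPKM under dexamethasone and at 0.577, 3.27 and 1.42 FPKM under vehicle. Its groups overlapped fully in both sexes, and the sign of its averaged difference (0.08, SE 0.27) changed when single libraries were left out. Psmb8 (beta5i) ranged from 0.186 to 0.806 FPKM under dexamethasone and from 0.173 to 0.664 FPKM under vehicle, below the filter. The loci of Psmb9, Psmb8 and Psmb10 also span Tap1, Tap2, and Lcat with Slc12a4, so the split of reads between these genes is uncertain.

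The constitutive Psmb5 (beta5), the catalytic gene whose product cuts after hydrophobic residues, sits in the table in 1 locus with the microRNA gene Mir686, and its reads could not be set apart. That locus held 371, 737 and 445 FPKM in male dexamethasone libraries and 372, 388 and 697 FPKM in male vehicle libraries. It held 269, 274 and 550 FPKM in female dexamethasone libraries and 607, 504 and 651 FPKM in female vehicle libraries. The groups overlapped in both sexes, and its averaged difference was -0.34 (SE 0.25, adjusted p = 0.589), with a coefficient of variation of 32.8% in FPKM over the 12 libraries.

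The 6 ATPase genes of the base, which unfold substrates, had differences between -0.10 and 0.21, 5 positive and 1 negative. Psmc6 (Rpt4; chromosome 14, 45329788 to 45349705) was at 125.0, 133.9 and 119.97 FPKM in male dexamethasone libraries, against 120.3, 113.8 and 103.4 FPKM in male vehicle libraries. Its female libraries were at 127, 139 and 116 FPKM under dexamethasone and at 119, 98.0 and 104 FPKM under vehicle. In each sex the lowest dexamethasone library lay below the highest vehicle library, and the difference was 0.21 (SE 0.07, adjusted p = 0.246). Psmc3 (Rpt5), the most abundant, averaged 282 ± 27.1 FPKM under dexamethasone and 248 ± 12.3 FPKM under vehicle (SD, n = 6 each; difference 0.18, adjusted p = 0.322). Psmc2 (Rpt1), the lowest, averaged 58.3 ± 6.49 FPKM under dexamethasone and 62.3 ± 1.78 FPKM under vehicle (difference -0.10, adjusted p = 0.591). Psmc1, Psmc4 and Psmc5, which encode Rpt2, Rpt3 and Rpt6, had differences of 0.13, 0.09 and 0.0099.

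The non-ATPase genes of the regulatory particle were the most divided class, with 6 positive and 4 negative differences and a median of 0.04. Their median turned negative after quantile normalization (-0.027, 4 of 10 positive) and after scaling to the protein-coding total (-0.042, 3 of 10 positive). Psmd6 encodes Rpn7, a scaffold of the lid (chromosome 14, 14112174 to 14120984). It stood at 129, 140 and 125 FPKM in male dexamethasone libraries, against 110, 118 and 105 FPKM in male vehicle libraries. Its female libraries stood at 134, 134 and 130 FPKM under dexamethasone and at 125, 102 and 108 FPKM under vehicle. The lowest dexamethasone library (125.15 FPKM) was just above the highest vehicle library (124.87 FPKM), so the 6 and 6 libraries did not overlap. Such separation upward was seen for 1 of 43 members (2.33%) and for 1.41% of all loci, and separation downward for 0 members and 0.804% of loci. The averaged difference was 0.25 (SE 0.06, 95% interval 0.11 to 0.38, adjusted p = 0.102), and it was called in 2 of 24 alternatives, among them the fit without female vehicle library 1 (adjusted p = 0.0421). Over the 24 the adjusted p ran from 0.0421 to 0.410.

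Psmd7 (Rpn8, the partner of the deubiquitinase Rpn11; chromosome 8, 107580381 to 107588464) went the other way without passing the test. It stood at 57.5, 45.4 and 57.0 FPKM in male dexamethasone libraries, against 62.5, 59.5 and 59.7 FPKM in male vehicle libraries. In females it stood at 55.7, 43.9 and 67.4 FPKM under dexamethasone and at 56.6, 63.0 and 68.6 FPKM under vehicle. The male groups did not overlap, the female groups did, and library 2 was the lowest dexamethasone library of either sex. The difference was -0.19 (SE 0.11, adjusted p = 0.468), the lowest of the members. Psmd3 (Rpn3), the least abundant of the class, averaged 54.7 ± 6.19 FPKM under dexamethasone and 60.6 ± 5.90 FPKM under vehicle (SD, n = 6 each; difference -0.15, adjusted p = 0.506). Psmd11 (Rpn6), a lid scaffold, had the other negative difference apart from Psmd13, -0.065, at 77.8 ± 8.81 FPKM under dexamethasone and 81.1 ± 4.67 FPKM under vehicle. Psmd14 encodes the deubiquitinase Rpn11 itself and averaged 157 ± 12.3 FPKM under dexamethasone and 149 ± 13.7 FPKM under vehicle (difference 0.08, adjusted p = 0.672). Psmd8 (Rpn12) and Psmd12 (Rpn5) had differences of 0.17 and 0.06.

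Psmd13 (Rpn9) had the largest spread of the constitutive subunits among the 46 genes, a coefficient of variation of 32.2%, against 2.84% for Psmd2 (Rpn1), the steadiest member. Its locus, chromosome 7 from 140856957 to 140898643, also spans Bet1l, Ric8a and Sirt3. It stood at 142, 220 and 265 FPKM in male dexamethasone libraries, against 219, 350 and 251 FPKM in male vehicle libraries. Female libraries stood at 337, 128 and 306 FPKM under dexamethasone and at 169, 152 and 239 FPKM under vehicle. The groups overlapped in both sexes. The averaged difference of -0.019 (SE 0.27) changed sign with single libraries left out. Psmd1 (Rpn2), joined with Armc9 and Gm21972 and so outside the 46, averaged 116 ± 4.49 FPKM under dexamethasone and 116 ± 3.47 FPKM under vehicle (SD, n = 6 each).

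**Figure D3:**
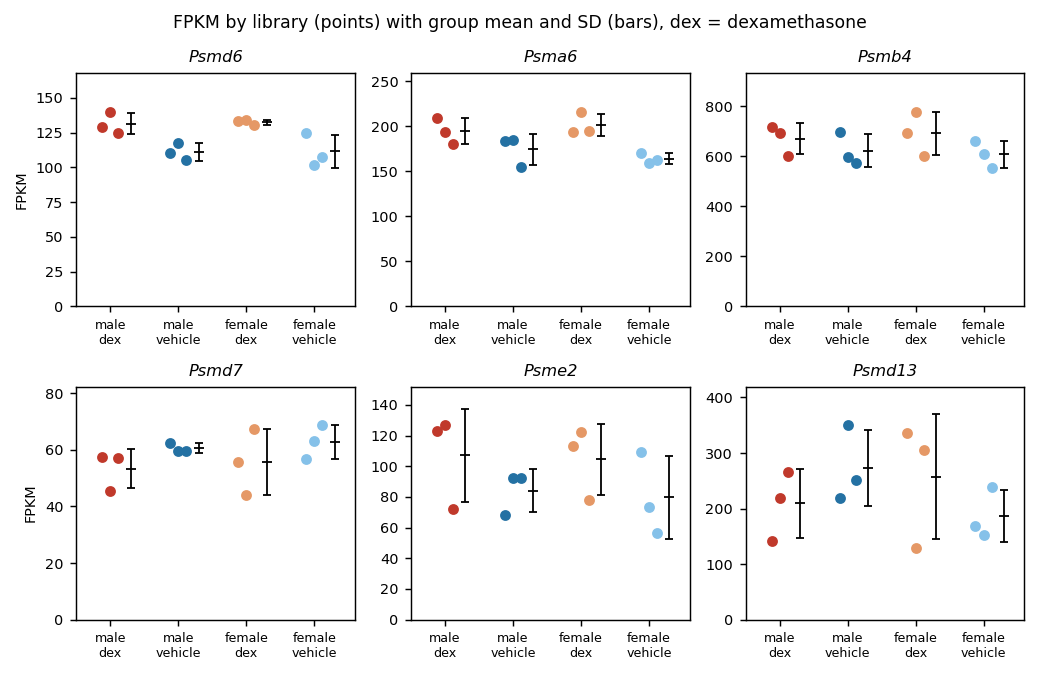
FPKM of 6 proteasome genes in each library (points) with the group mean and SD (bars, n = 3 per group), axes from 0. Psmd6 is separate by treatment, Psma6 and Psmb4 overlap in part, Psmd7 is separate downward in males and overlaps in females with replicate 2 the lowest in each dexamethasone group, and Psme2 and Psmd13 spread by over 2-fold between libraries (largest over smallest 2.25 and 2.72).

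Of the 5 activators and inhibitors of the core, 4 had positive differences and none an unadjusted p under 0.05. Psme2, which with Psme1 forms the interferon-inducible cap of the core, was at 123, 127 and 72.2 FPKM in male dexamethasone libraries, against 68.0, 92.3 and 92.1 FPKM in male vehicle libraries. In females it was at 113, 122 and 78.1 FPKM under dexamethasone and at 110, 73.3 and 56.4 FPKM under vehicle. Library 3 was the lowest dexamethasone library in both sexes and lay among the vehicle libraries. Its difference of 0.36 was the largest of all members, with an interval from -0.10 to 0.83 (adjusted p = 0.468). Psme3, the nuclear cap, was at 69.9 ± 9.71 FPKM under dexamethasone and 71.3 ± 7.58 FPKM under vehicle (SD, n = 6 each; difference -0.033). Psmf1, the inhibitor gene and the lowest of the class, was at 13.55 ± 1.74 FPKM under dexamethasone and 13.2 ± 1.99 FPKM under vehicle. Both differences changed sign in some settings. Psme1 and Psme4, which encode the partner of Psme2 and a single-chain nuclear activator, had differences of 0.09 and 0.04, and Psme1 spread from 43.0 to 69.3 FPKM under dexamethasone and from 34.2 to 65.8 FPKM under vehicle.

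All 6 assembly chaperone genes had small positive differences, between 0.03 and 0.19. At an unadjusted p under 0.05, 1 of 6 was higher, where 6.86% of all loci were. Psmg2, whose product helps build the alpha ring, averaged 32.7 ± 1.89 FPKM under dexamethasone and 28.7 ± 2.84 FPKM under vehicle (SD, n = 6 each; difference 0.19, SE 0.07, adjusted p = 0.294). Psmg4, another alpha ring chaperone and the most abundant of the class, averaged 50.8 ± 4.03 FPKM under dexamethasone and 45.6 ± 4.74 FPKM under vehicle (difference 0.16, adjusted p = 0.374). Psmg1 (24.98 ± 2.76 FPKM under dexamethasone and 24.5 ± 3.18 FPKM under vehicle) and Psmd9, a base chaperone (12.1 ± 0.488 FPKM under dexamethasone and 11.7 ± 0.232 FPKM under vehicle), turned negative after scaling to the protein-coding total (-0.046 and -0.033). Psmd5 and Psmd10, chaperones of the ATPase ring, both had a difference of 0.08. Psmg3, an alpha ring chaperone joined with Gm26938 and Tmem184a and so outside the 46, stood at 28.2 ± 1.83 FPKM under dexamethasone and 25.6 ± 1.94 FPKM under vehicle (difference 0.13, adjusted p = 0.401). Psmc3ip, the gene that is no subunit, averaged 22.15 ± 1.22 FPKM under dexamethasone and 20.5 ± 3.04 FPKM under vehicle, a difference of 0.12 (SE 0.08, adjusted p = 0.540).

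The sexes were compared next. In females limma called 0 of 43 members, against 0.482% of all loci, with 11 higher and 0 lower at an unadjusted p under 0.05, where 4.59% and 3.44% of loci were. In males it called 0 of 43, against 0.315% of loci, with 1 higher (Psmd6) and 0 lower at an unadjusted p under 0.05, where 3.35% and 3.03% were. The median difference over the members was 0.18 in females and 0.09 in males, and 37 members were positive in females (48.2% of all loci) and 32 in males (47.4%). The female count of 11 ranged from 3 to 13 with 1 library left out, at 3 without female vehicle 2, 4 without female dexamethasone 1 or female vehicle 3, and 5 without female dexamethasone 2. Of all loci, 541 of 14914 were higher in females without female dexamethasone 1. Loci called in females over all genes numbered 72 in the main fit and 31 without female dexamethasone 1. They numbered 38 without female vehicle 3 and 27 with female libraries alone. The female count was 2 after quantile normalization (631 of 14931 loci), 0 after scaling to an equal protein-coding total (361 of 14945) and 3 in a fit of female libraries alone. With the replicate number as a block it was 17, where 1344 of 14931 loci were higher. The male count became 0 without male dexamethasone 2 or male vehicle 3, 2 without female vehicle 1, 3 without male vehicle 1 and 4 without male dexamethasone 3. Of all loci, 438 of 14929 were higher in males without male dexamethasone 2 and 433 of 14868 without male vehicle 3. Without male vehicle 1, 556 of 14970 were, and without male dexamethasone 3, 622 of 14952. Under array weights 6 members were higher and 1 lower, where 843 and 927 of 14931 loci were. With the block 5 members were higher and 1 lower, where 1079 and 1249 of 14931 loci were. The male median was 0.16 without male vehicle 1, 0.15 without male dexamethasone 3, 0.05 without male dexamethasone 1 and 0.04 without male vehicle 3. The 3 female dexamethasone libraries all lay above the 3 female vehicle libraries for 12 of 43 members (27.9%), against 6.95% of all loci, and below them for 0, against 5.82%. These were Psma1, Psma6, Psmb2, Psmb6, Psmb7, Psmc1, Psmc3, Psmc3ip, Psmc4, Psmd4, Psmd6 and Psmd8. In males 4 members were separate upward (9.3%, against 5.73%), Psma1, Psmd6, Psmd9 and Psmg2, and Psmd7 was the 1 separate downward (2.33%, against 6.15%). Some of these 15 genes are named only for this count, after their values were seen.

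Psmd4, the gene of the ubiquitin receptor Rpn10, had the lowest adjusted p of the members in females and was chosen for it. It stood at 122, 116 and 109 FPKM in female dexamethasone libraries and at 95.6, 103 and 94.8 FPKM in female vehicle libraries, without overlap. In males it stood at 116, 112 and 104 FPKM under dexamethasone and at 104, 103 and 109 FPKM under vehicle, with overlap. The difference was 0.24 in females (SE 0.07, adjusted p = 0.343) and 0.07 in males (SE 0.07, adjusted p = 0.895). The difference of the female and male effects was 0.17, with a 95% interval from -0.060 to 0.39 (adjusted p = 0.99995).

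That difference between the effects, tested as an interaction, was called for 0 of 43 members, against 5 of 14931 loci (0.0335%), and 0 members had an unadjusted p under 0.05, against 1.47% of loci. Its median over the members was 0.07 (0.0094 over all loci), and 34 of 43 were positive, against 52.5% of loci. The median was 0.03 without male dexamethasone 3 or male vehicle 1, 0.04 without female dexamethasone 2, 0.10 without male vehicle 3 and 0.14 without male dexamethasone 2 and male vehicle 3. The widest was Psmd13 at 0.77, with an interval from -0.42 to 1.96. Between females and males averaged over treatment, limma again called 0 of 43, against 16 loci (0.107%), and 0 members had an unadjusted p under 0.05, against 7.68% of loci. The median female minus male difference was 0.011 for the members and 0.038 for all loci, 30 of 43 members were positive against 60.3% of loci, and the members' median was negative in some settings (down to -0.030).

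The position of each library, taken as the median deviation of the members from their 12-library mean, differed by replicate as well as by treatment. In males it was 0.087, 0.060 and -0.022 under dexamethasone and 0.028, -0.042 and -0.1503 under vehicle. In females it was 0.106, 0.126 and 0.026 under dexamethasone and 0.0039, -0.090 and -0.101 under vehicle. Replicate 3 was the lowest library in each of the 4 groups, and the dexamethasone and vehicle libraries overlapped in males and did not in females. Set by number, the dexamethasone library was the higher in 6 of 6 pairs, though the labels do not say what a number marks. Over all protein-coding loci tested the same deviations stayed between -0.028 and 0.031.

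**Figure D4:**
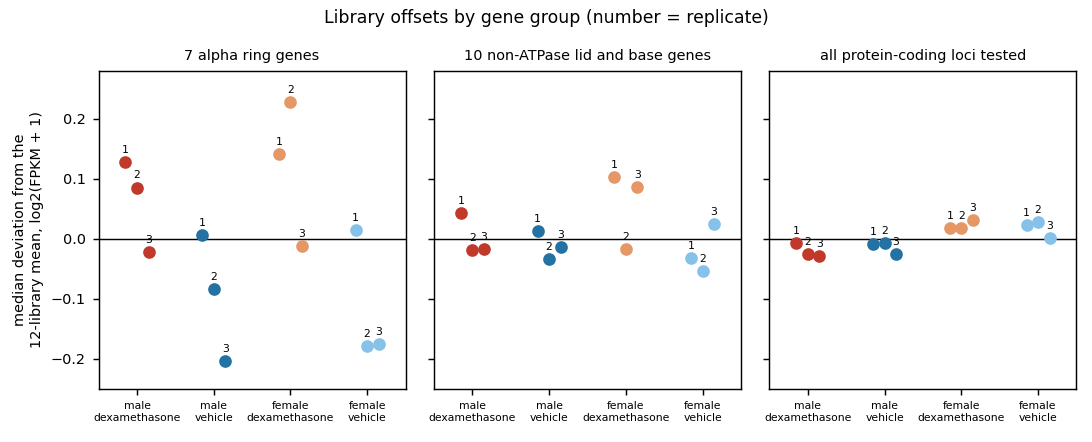
Median deviation from the 12-library mean, log2(FPKM + 1), in each library for the 7 alpha genes, the 10 non-ATPase genes of the regulatory particle and all protein-coding loci tested. Points are single libraries numbered by replicate; the alpha genes spread most, with replicate 3 at or near the bottom of each group, while all protein-coding loci stay within -0.028 to 0.031.

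Other measures moved with the members. Summed protein-coding FPKM was 473538, 480974 and 471719 in male dexamethasone libraries and 470846, 454455 and 444189 in male vehicle libraries. It was 509125, 498200 and 467516 in female dexamethasone libraries and 473563, 459119 and 437353 in female vehicle libraries. Replicate 3 was again the lowest of each group. Protein-coding loci also differed by level: the median averaged difference was -0.048 for the 4485 with a mean of 1 to 10 FPKM, 0.06 for the 407 at 100 to 200 FPKM, of which 70.5% were positive, and 0.14 for the 115 at 500 FPKM or more. The members' median was 0.16 for the 16 at 100 to 200 FPKM, all 16 of them positive, and 0.0099 for the 11 at 50 to 100 FPKM, 6 of them positive, where protein-coding loci had 0.0495. By exonic length the protein-coding median was 0.11 under 1000 bases and -0.061 at 8000 bases or more. The part of level, length and total FPKM in the members' differences was not tested.

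**Figure D5:**
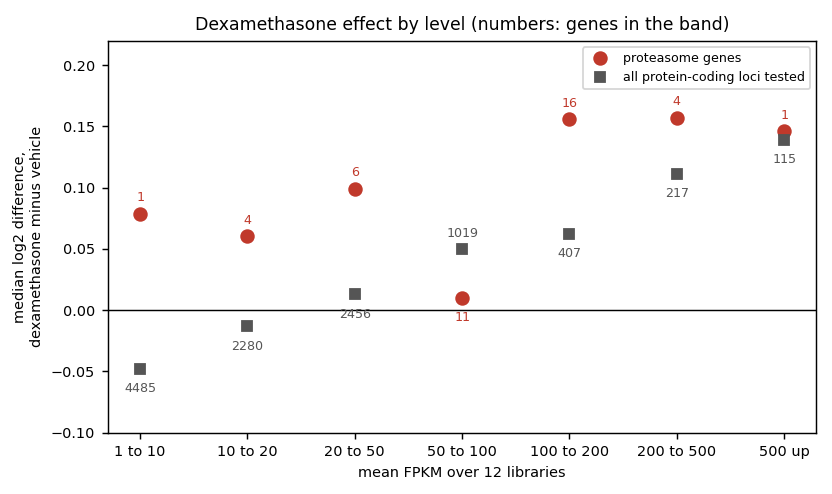
Median log2 difference, dexamethasone minus vehicle averaged over both sexes, by mean FPKM, for proteasome genes (circles) and all protein-coding loci tested (squares), with the number of genes beside each point. Protein-coding medians climb from -0.048 at 1 to 10 FPKM to 0.14 at 500 FPKM or more, and the members lie above them in every band except 50 to 100 FPKM. The lowest band (Psmb9) and the highest (Psmb4) hold 1 member each.

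Of 8 neural progenitor markers, 2 were called in the averaged comparison, both lower, where 0.388% of all loci were called lower. Of the 8, 1 had a positive averaged difference, and their median was -0.36, against -0.0067 over all loci. The summed level of the 8 overlapped, at 5391.5 to 6990.3 FPKM under dexamethasone and 5675.9 to 6894.6 FPKM under vehicle. Fabp7, at 3503 FPKM on average, weighed most in that sum. Msi1, an RNA-binding protein gene of progenitors, fell to 16.5 ± 2.54 FPKM under dexamethasone, against 26.2 ± 3.43 FPKM under vehicle (SD, n = 6 each; difference -0.64, adjusted p = 0.0151). Nr2e1, a stem cell nuclear receptor gene, fell to 3.85 ± 0.973 FPKM under dexamethasone, against 6.17 ± 0.975 FPKM under vehicle (difference -0.57, adjusted p = 0.0475). The Nr2e1 call was lost without any 1 library other than female dexamethasone 3 or female vehicle 1, under both other filters and after quantile normalization, and the Msi1 call without male dexamethasone 2 and male vehicle 3 together (adjusted p = 0.0997). In bulk RNA fewer cells of a type and less RNA per cell cannot be told apart, and the part of such shifts in the proteasome values was not tested.

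The other genes of the pathway were read from 6 lists. Of 11 tested proteasome partners (Pomp, ubiquitin receptors, deubiquitinases and shuttling factors) 0 were called, and the median difference was 0.03. Shfm1, a small lid subunit, had the largest positive difference (0.20, adjusted p = 0.336) and AI314180, the gene of the proteasome adaptor Ecm29, the largest negative one (-0.18, adjusted p = 0.270). Of 5 genes of ubiquitin and its activating enzymes 0 were called, from Rps27a at 0.10, which turned negative after quantile normalization, to Uba6 at -0.20 (adjusted p = 0.148, and 0.0492 with array weights). Of 11 genes that deliver substrates, such as Vcp and the ubiquilins, 0 were called, 4 were positive, and Ubqln2, a ubiquilin gene, had the largest negative difference (-0.43, adjusted p = 0.308).

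Of 9 tested genes of proteasome transcription, 0 were called. Nfe2l1, the transcription factor that raises subunit genes when proteasome activity is low, stood at 62.5, 51.6 and 62.1 FPKM in male dexamethasone libraries, against 66.9, 71.9 and 73.3 FPKM in male vehicle libraries. Its female libraries stood at 62.9, 49.2 and 66.3 FPKM under dexamethasone and at 65.5, 76.5 and 75.7 FPKM under vehicle. The male groups were apart and the female groups overlapped by 1 library. Its difference was -0.28 (SE 0.09, adjusted p = 0.206), the largest negative one of the list, and that of Nfe2l2, its relative of the oxidative stress response, was -0.21 (SE 0.06, adjusted p = 0.197). Mafk, a small partner factor, had the largest positive one (0.24, adjusted p = 0.340).

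Of 10 tested genes of antigen presentation, which the inducible subunits serve, 0 were called, the ends being Ifngr1 (0.20, adjusted p = 0.544) and Tap2 (-0.58, adjusted p = 0.409). Of 5 tested ubiquitin ligases of muscle atrophy, 1 was called, and it fell, where 0.388% of all loci were called lower. Fbxo32 (atrogin-1), a gene that glucocorticoids induce in skeletal muscle, stood at 2.29, 2.12 and 1.27 FPKM in male dexamethasone libraries, against 4.21, 4.07 and 2.99 FPKM in male vehicle libraries. In females it stood at 2.85, 1.51 and 1.82 FPKM under dexamethasone and at 6.47, 5.02 and 3.75 FPKM under vehicle. All 6 dexamethasone libraries lay below all 6 vehicle libraries, with a difference of -0.86 (SE 0.16, adjusted p = 0.0322). The adjusted p ran from 0.00819 to 0.0894 over 23 alternatives, and the call was kept without male dexamethasone 1, male vehicle 3, female dexamethasone 1 or female vehicle 3 and lost without any other library. It was lost too without male dexamethasone 2 and male vehicle 3 together, after quantile normalization and with no filter on low values, and the difference was negative in all 23. Traf6 had the largest positive difference of that list (0.18, adjusted p = 0.318). Trim63, the other muscle ligase, was near 0 in all libraries, at 0.0586 FPKM at most.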

How the data were processed

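The authors deposited 1 FPKM value per locus and library. TopHat2 2.0.9, Cufflinks 2.2.1, Cuffdiff 2.2.1 and the build GRCm38 are named in the submitters' processing notes. Libraries came from total RNA with a stranded kit, per the labels' protocols. No source used here gives the annotation release, how strand was counted or how libraries were scaled. FPKM hold no counts, so depth is unknown and no counting interval is given. Of the 46 member loci, 18 overlap another annotated gene and 10 another protein-coding gene, whose reads are uncertain.

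limma 3.58.1 (R 4.3.3) was fitted to log2(FPKM + 1) of all 12 libraries, with a mean for each of the 4 groups and trended eBayes, over loci whose mean was 1 FPKM or more. The pseudocount understates differences of low genes. The code was tested on simulated data. Comparisons were dexamethasone minus vehicle averaged, in males and in females, female minus male effect, and female minus male. A locus counts as protein coding where its biotype includes that word. All 46 loci were matched to GENCODE M21 on GRCm38 for coordinates, which count from 1, and promoters are RefSeq's. Lists hold synonyms and genes in joined loci, and those without a value are not analysed here; 1 gene that the naming rule picked is not reported here. The members, lists and tests were chosen with earlier results of these data known. Named genes were the highest and lowest in level and difference in each role and list, the catalytic genes, every called gene and those below the filter; other members are given by role. Alternatives covered the pseudocount, filter, scaling, weights, replicate block and each library left out.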

Additional observations from a re-analysis of the deposited data

How the results depend on the processing

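Of 43 tested members, 0 were called in males, females, the interaction or the sex difference under every alternative run. In the averaged effect 1 member, Psmd6, was called with the replicate block (adjusted p = 0.0458) and without female vehicle 1, so the count of called members ran from 0 to 1 with 1 library left out. Same-numbered libraries of a sex correlated at 0.0819 to 0.167 in their deviations from group means, 4 of 6 over 0.1 and 6 of 6 best with their own number, and the labels do not say that a number marks a shared culture. Of the pathway genes Nfe2l2, Uba6 and Ubqln2 were called with the block. At an unadjusted p under 0.05 the block gave 21 of 43 members higher and 1 lower averaged (12 of 13 core genes higher), where 1838 and 1870 of 14931 loci were. In females it gave 17 higher and 0 lower, where 1344 and 1208 loci were. In males it gave 5 and 1, where 1079 and 1249 loci were. Set by number, the alpha sum and the members' median position were higher under dexamethasone in 6 of 6 pairs each. Summed protein-coding FPKM was also higher under dexamethasone in each of these pairs. The median position of all protein-coding loci was higher in some of them and lower in others. With the block the called loci were 804 averaged (420 higher, 384 lower), 148 in males, 187 in females and 8 for the interaction. The cause was not tested for any change below. The members' median averaged difference was 0.0502 after quantile normalization and 0.0432 after scaling to an equal protein-coding total, a setting added after the data were seen, and 0.111 to 0.159 with 1 library left out. In females it was 0.0666 and 0.0714 under those settings (0.128 to 0.219), in males 0.0401 to 0.159, and for the interaction 0.138 without male dexamethasone 2 and male vehicle 3 (0.0313 to 0.104). Psma3 (-0.0011), Psmb4 (-0.072) and Rps27a (-0.070) reversed after quantile normalization. Psmg1 (-0.046), Psmf1 (-0.042) and Psmd9 (-0.033) reversed after total scaling, Psmg1 (-0.0022) and Psmf1 (-0.024) with array weights, and Psmb9 (-0.050) without the 2 libraries. With 1 library left out, Psme3 ran from -0.089 to 0.035, Psmf1 from -0.037 to 0.088, Psmd13 from -0.15 to 0.20, Psmb9 from -0.092 to 0.27 and Psmg1 from -0.032 to 0.096. Called loci over all genes were 95 in males with array weights, 1 for the interaction and 7 for the sexes with protein-coding loci only, and 114 averaged, 19 in males and 8 for the interaction without the 2 libraries. Fits of 1 sex gave 21 male and 27 female calls. With 1 library left out they ran from 146 to 215 averaged, 28 to 49 in males, 31 to 74 in females, 4 to 14 for the interaction and 15 to 28 for the sexes. FPKM carry no depth, which limits what the low genes Psmb8, Psmb9, Psmb11 and Psma8 can show. A mean of at least 5 FPKM removed Psmb9, Fbxo32, Mafk and Tap2.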
